A study of Mus musculus with 2 samples.

Results

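Voltage-gated sodium and calcium channels are the proteins through which neurons fire action potentials and turn them into calcium signals. A single large pore-forming subunit (α for sodium channels, α1 for calcium channels) opens when the membrane depolarises, and smaller auxiliary subunits set how much of it reaches the membrane and how it gates. N6-methyladenosine (m6A) is placed on nascent mRNA by the METTL3-METTL14 methyltransferase, mostly at adenosines of the 5-base DRACH motif (D for A, G or T, then R for either purine, then AC, then H for any base but G) and mostly in long exons and around stop codons. It is known for steering the turnover and translation of mRNA in the developing brain.

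The m6A sites of 40 such genes were examined, out of 21951 protein-coding genes. The genes were chosen by name from GENCODE M21 (Scn followed by a digit, Cacna, Cacnb or Cacng), and a site was counted when it lay within the gene's interval on the same strand. They comprised 20 pore-forming subunits (10 of sodium channels, 7 of high-voltage-activated and 3 of low-voltage-activated calcium channels) and 20 auxiliary subunits (4 sodium channel β, 4 α2δ, 4 calcium channel β and 8 γ subunits). All sites came from GLORI, a chemical method that deaminates unmodified adenosine to inosine, which is read as G, and leaves m6A to be read as A.

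GLORI had been run on polyA RNA of 2 tissues, cerebellum and cerebrum, of a female F1r hybrid at P0. F1r denotes a C57 mother and a PWK father, so both libraries share this genotype, sex and age, and both carry the same treatment (GLORI+). The labels give neither the number of animals behind each tissue nor an untreated control, and each tissue is 1 library. Differences between the tissues therefore have no replicate check, no test between tissues was made, and each interval given is a 95% Wilson interval, which holds the counting error of the sites and nothing else. The site lists carry positions without methylation rates or read counts, so the depth is unknown, and a site that is missing from a list can be unmethylated, too thinly covered or in an mRNA that was hardly expressed, and these cannot be told apart. Nor can fewer cells of a type be told from less RNA per cell in such bulk tissue.

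The cerebellum library listed 79355 sites and the cerebrum library 188295, of which 48241 were listed in both. Summed site counts of marker genes went with the tissue labels, although Zic1, Zic2 and Zic4 of the cerebellum markers did not. Of 10 genes that mark the cerebellum, 8 had a DRACH site on a coding exon in the cerebellum library (60 sites) and 4 in the cerebrum library (36 sites). Zic4 had 4 and 13 of these, Zic2 6 and 8, and Zic1 14 and 14. Of 10 genes that mark the cerebrum, 5 had such sites in the cerebellum library (31 sites) and 10 in the cerebrum library (185 sites). No site on a coding exon with a DRACH motif was listed in either library for 6 skeletal muscle markers or 5 sensory neuron markers.

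The channel genes held 461 sites in the cerebellum library and 969 in the cerebrum library, of which 264 were at the same position in both. At least 1 site was listed for 26 of the 40 genes in cerebellum (65.0%, against 41.2% of all protein-coding genes) and for 32 in cerebrum (80.0%, against 57.4%). DRACH motifs held 280 of the cerebellum sites (60.7%, interval 56.2 to 65.1) and 407 of the cerebrum sites (42.0%, interval 38.9 to 45.1). In all other coding genes the DRACH share was 63.2% in cerebellum and 47.5% in cerebrum, so the channel genes lay below them in cerebrum. Cacna2d1 weighed on that: without it the cerebrum share was 44.7% (interval 41.4 to 48.1). This was still lower, but the interval includes the value of other genes.

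Most DRACH sites lay on exons of complete coding isoforms, and these exonic DRACH sites are the basis of what follows. They numbered 249 in cerebellum and 352 in cerebrum, with 209 in both. At least 1 was present in 26 of 40 genes in cerebellum (65.0%, against 33.4% of all protein-coding genes) and in 27 of 40 in cerebrum (67.5%, against 43.0%). The pore-forming genes contributed 154 and 217 of them, from 12 of 20 genes in each library, and the auxiliary genes 95 and 135, from 14 and 15 of 20 genes. The bar plot of sites per gene shows how unevenly they were spread.

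**Figure D1:**
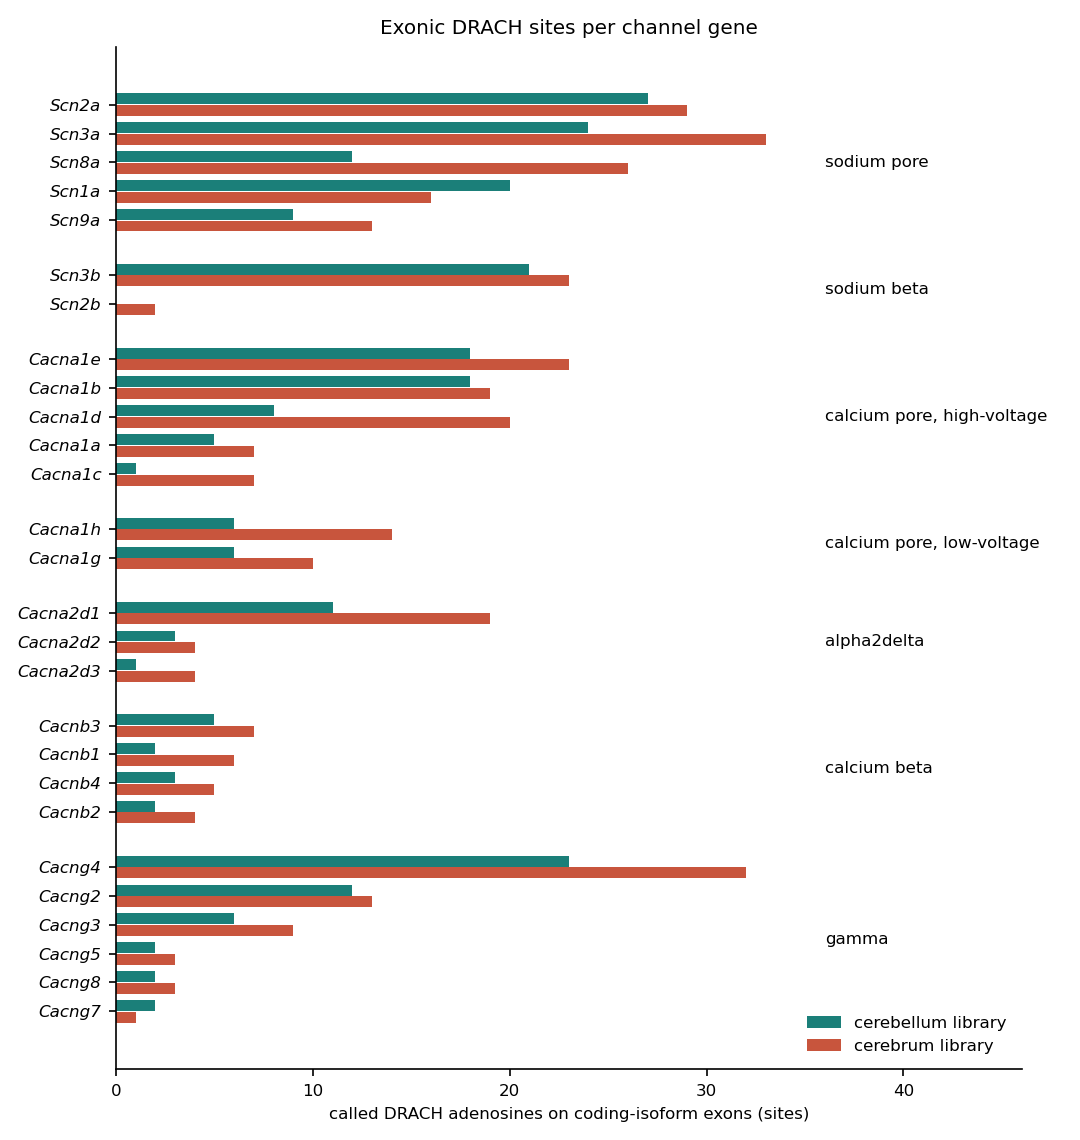
Called DRACH adenosines on exons of coding isoforms (x axis, number of sites) for each of the 27 channel genes with at least 1 such site, grouped by subunit class, with 1 bar for each library. Scn2a, Scn3a, Cacng4, Scn8a and Cacna1e carried the most sites over both libraries.

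The 10 genes with the most exonic DRACH sites over both libraries were Scn2a, Scn3a, Cacng4, Scn8a, Cacna1e, Scn3b, Scn1a, Cacna1b, Cacna1d and Cacna2d1. To show what a methylated channel mRNA looks like at base level, the site found in both libraries that was nearest to the stop codon is printed for 10 genes that span every subunit class. Each sequence is 21 nt of GRCm38 (mm10) on the gene's strand with the 5-base motif in capitals and the called adenosine at its centre.
Scn2a, 3′ UTR, chr2:65764940-65764960 (+): tctatgccAAACTgactgttt
Cacna1e, 3′ UTR, chr1:154398330-154398350 (-): gaaaaccaAGACCaaattggg
Cacna1h, coding sequence, chr17:25375228-25375248 (-): tagaaactGAACTttctatgc
Scn3b, 3′ UTR, chr9:40288510-40288530 (+): aatggaagTGACTttcaattt
Cacna2d1, coding sequence, chr5:16370610-16370630 (+): ctatctttGGACTccagttta
Cacnb3, coding sequence, chr15:98643551-98643571 (+): tggcccaaGGACAgctactga
Cacng4, coding sequence, chr11:107734825-107734845 (-): ttccaacaGGACCtaaaggaa
Scn3a, coding sequence, chr2:65460623-65460643 (-): ccttcctaTGACAgtgtaaca
Cacna1b, coding sequence, chr2:24606573-24606593 (-): cccgatcaGGACCactggtgc
Cacng2, coding sequence, chr15:77995185-77995205 (-): gacagcaaGGACTctctccac
The sites of Cacnb3 and Cacna1b lay 10 and 13 nt before the end of the stop codon, those of Cacng2, Cacna2d1 and Cacng4 46, 54 and 55 nt before it, and those of Scn3a and Cacna1h 76 and 135 nt before it. Those of Cacna1e, Scn3b and Scn2a lay 53, 83 and 121 nt past it. All 10 sites were on the last exon of the isoform they were assigned to.

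Among the sodium channel pore genes, 5 of 10 carried exonic DRACH sites, and they are the brain and peripheral neuronal genes Scn1a, Scn2a, Scn3a, Scn8a and Scn9a. Scn2a, which encodes Nav1.2 of immature axons, had 27 exonic DRACH sites in cerebellum and 29 in cerebrum, 22 of them in both. Scn3a (Nav1.3), known for its expression before and around birth, had 24 and 33, and all 24 cerebellum sites were also called in cerebrum. These counts were close in Scn2a, while Scn3a was higher in cerebrum.

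Scn8a (Nav1.6), the main channel of mature axon initial segments and nodes, had 12 exonic DRACH sites in cerebellum and 26 in cerebrum, 9 in both. Scn1a (Nav1.1), the channel of fast-spiking interneurons and the gene of Dravet syndrome, ran the other way with 20 in cerebellum and 16 in cerebrum, 12 in both. Scn9a (Nav1.7), best known from pain neurons, had 9 and 13, with 7 in both. Among the 14 channel genes with at least 10 exonic DRACH sites in either library, Scn1a alone had more in cerebellum (7.14%, against 4.78% of 2805 such genes). Scn8a, Cacna1d and Cacna1h had at least 2-fold more in cerebrum (21.4%, against 34.8%).

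Of the sodium channel β subunits, which are single-pass membrane proteins that modulate gating and cell adhesion, Scn3b carried the most sites. It carried 21 exonic DRACH sites in cerebellum and 23 in cerebrum, 19 of them in both. Scn2b had 2 in cerebrum only, among 6 sites of any kind. Scn4b had 2 sites of other kinds in cerebrum and none in cerebellum.

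High-voltage-activated calcium channel pore genes carried sites in 5 of 7 cases. Cacna1e, which encodes the R-type channel, had 18 exonic DRACH sites in cerebellum and 23 in cerebrum (13 in both), and Cacna1b, the N-type channel of presynaptic terminals, had 18 and 19 (15 in both). Cacna1d (L-type) had 8 and 20 (7 in both). Cacna1a, the P/Q-type channel that dominates at Purkinje cells, had 5 and 7 with 4 in both, and Cacna1c, the other neuronal L-type channel, had 1 and 7 with 1 in both. The counts of Cacna1b and Cacna1e were close between the libraries, and those of Cacna1d and Cacna1c were far apart.

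The low-voltage-activated (T-type) genes differed among themselves. Cacna1g had 6 exonic DRACH sites in cerebellum and 10 in cerebrum, and Cacna1h 6 and 14, and all 6 cerebellum sites of each gene recurred in cerebrum. Cacna1i had 1 site of another kind, in cerebrum. Of the T-type sites, 2 of 12 in cerebellum and 3 of 24 in cerebrum were in the 3′ UTR. These mRNAs offer few DRACH adenosines there. Cacna1g has 12 in the 3′ UTR and 129 in the coding sequence, and Cacna1h 16 and 120.

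The α2δ subunits, extracellular proteins that carry the pore to the membrane and include the gabapentin receptor Cacna2d1, were led by that gene with 11 exonic DRACH sites in cerebellum and 19 in cerebrum, 9 in both. Cacna2d2 had 3 and 4 and Cacna2d3 had 1 and 4. The cytoplasmic calcium channel β subunits all carried sites. Cacnb3 had 5 and 7, Cacnb1 had 2 and 6, Cacnb4 had 3 and 5, and Cacnb2 had 2 and 4.

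The γ subunits include the transmembrane AMPA receptor regulatory proteins (TARPs), which traffic glutamate receptors rather than calcium channels. Cacng4 had 23 exonic DRACH sites in cerebellum and 32 in cerebrum, 22 of them in both. Cacng2 (stargazin) had 12 and 13 with 11 in both, and Cacng3 had 6 and 9 with 6 in both. Cacng8, Cacng7 and Cacng5 had between 1 and 3 in each library. Cacng4, Cacng2 and Cacng3 thus held 41 of the 47 γ sites in cerebellum and 54 of the 61 in cerebrum.

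No site of any kind was listed in either library for 8 genes. Among them were Cacna1s, Scn4a, Cacng1 and Cacng6, known from muscle, Scn10a of sensory neurons, and Cacna1f and Cacna2d4 of the retina. Genes with sites in the cerebrum library alone included Scn2b and Scn4b (above), Scn7a (1 site), Scn11a (3 sites) and Cacna1i (1 site), and the 2 exonic DRACH sites of Scn2b were the only DRACH sites on coding exons among these genes. No gene had sites in the cerebellum library alone.

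The mRNAs differ in length and in motif number, so the sites were next set against the DRACH adenosines that each mRNA offers. In the longest complete isoform of the genes with an exonic DRACH site, 247 of 3561 DRACH adenosines were called in cerebellum (6.94%, interval 6.15 to 7.82) and 350 of 3644 in cerebrum (9.61%, interval 8.69 to 10.6). The same shares in other coding genes with such a site were 6.47% and 9.06%, which lie within these intervals. Over all 39 channel genes with a complete isoform, unmarked ones included, 5.03% and 7.13% of 4911 DRACH adenosines were called.

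Single genes departed widely from this average. In Cacng4, 23 of 70 DRACH adenosines were called in cerebellum (32.9%) and 32 in cerebrum (45.7%). Among genes with at least 50 DRACH adenosines and a called one, 32 of 5541 had a higher share in cerebellum and 13 of 6885 in cerebrum, where the medians were 4.26% and 6.45%. Scn3b followed with 21.6% and 23.9% (192 and 437 genes higher), and Scn2a (14.1% and 15.2%), Scn3a (11.5% and 15.9%) and Cacng3 (11.1% and 16.7%) came after it, in an order that differed between the libraries. Low shares were found in Cacna1c (0.746%) and Cacna2d3 (1.09%) in cerebellum and in Scn2b (2.41%) and Cacna2d2 (2.88%) in cerebrum, the lowest pair of ranked channel genes in each library.

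The 2 densest genes differed in where their sites stopped. In Cacng4 the called adenosines ran along the whole 3′ UTR of 2423 nt, with 5 of 11 in cerebellum and 6 of 11 in cerebrum called beyond 2000 nt from the stop codon. In Scn3b all called adenosines of the 3′ UTR lay within 1500 nt of the stop codon (18 of 36 in each library), and none of the 38 DRACH adenosines beyond that point was called in either library. In Scn2a most lay close to the stop codon, with 10 of 18 called in the first 500 nt in each library and 2 of 30 (cerebellum) and 1 of 30 (cerebrum) beyond, the farthest at 2507 nt. Which 3′ ends these mRNAs use was not tested.

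**Figure D2:**
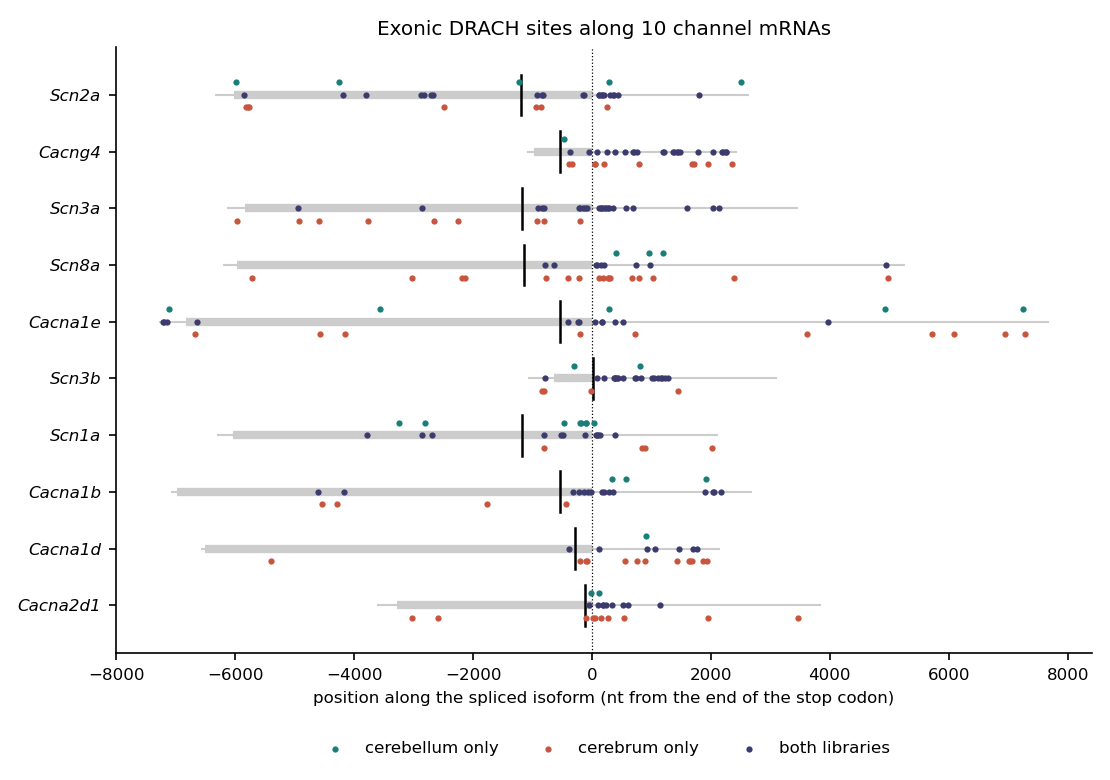
Exonic DRACH sites along the 10 channel mRNAs that carried the most, placed by their distance along the spliced isoform from the end of the stop codon (x axis, nt, dotted line at 0). Thick grey bars are coding sequence, thin lines UTRs, and black ticks the last exon junction of the longest complete isoform. Sites sit to the right of the last junction in most genes, with Cacng4 marked along its whole 3′ UTR and Scn3b in the first part of it.

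Most of these sites lay on last exons. The last exon held 83.5% of the exonic DRACH sites in cerebellum (interval 78.4 to 87.6) and 80.7% in cerebrum (76.2 to 84.5), against 74.7% and 74.1% in other coding genes. Of the DRACH adenosines on last exons, 207 of 1639 were called in cerebellum (12.6%, interval 11.1 to 14.3) and 283 of 1712 in cerebrum (16.5%, 14.9 to 18.4). The shares on last exons of other genes were 8.44% and 11.9%, below these intervals. Without Cacng4, an alternative chosen after seeing the data, the channel shares were 11.7% and 15.2%.

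Short internal exons carried few sites. Among internal exons of up to 200 nt, 1 of 1174 DRACH adenosines was called in cerebellum, in Cacna2d2 (0.0852%, interval 0.0150 to 0.481), and 14 of 1178 in cerebrum (1.19%, 0.709 to 1.98). In other genes 0.230% and 0.588% were called, so the channel genes were higher than these in cerebrum. In internal exons over 200 nt, 30 of 605 were called in cerebellum (4.96%, interval 3.50 to 6.99) and 38 of 610 in cerebrum (6.23%, 4.57 to 8.43), against 10.01% and 13.9% in other genes.

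The longer internal exons of channel genes were mostly of moderate size, so this comparison was split by length. In exons over 200 and up to 400 nt the coding DRACH adenosines of channel genes were called in 2.99% (cerebellum) and 3.86% (cerebrum) of cases, and those of other genes in 2.44% and 3.84%. Above 400 nt the shares were 10.5% (interval 6.66 to 16.2) and 12.96% (8.64 to 19.0) in channel genes and 15.8% and 22.2% in other genes. Between 200 and 400 nt the 2 sets were thus close, while above 400 nt the channel genes in cerebrum lay lower. The step above 400 nt has no upper limit, so exon lengths were not matched within it. The longest internal exon of the channel genes had 790 nt (Cacna1h).

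Called shares also varied with the distance to the nearest exon junction. Of channel DRACH adenosines within 100 nt of a junction, 18 of 1629 were called in cerebellum (1.11%) and 43 of 1639 in cerebrum (2.62%). Between 100 and 200 nt the shares were 7.08% and 9.30%, between 200 and 400 nt 22.2% and 28.1%, and above 400 nt 20.9% and 27.7%. In other genes they were 1.16% and 1.93% within 100 nt, 12.6% and 17.7% in the next step, 17.4% and 25.1% up to 400 nt, and 16.02% and 23.2% above. In both sets the shares were low near junctions and level beyond 200 nt. Pore-forming genes were lower than other genes between 100 and 200 nt (4.55%, interval 2.32 to 8.71, and 7.39%, 4.37 to 12.2).

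**Figure D3:**
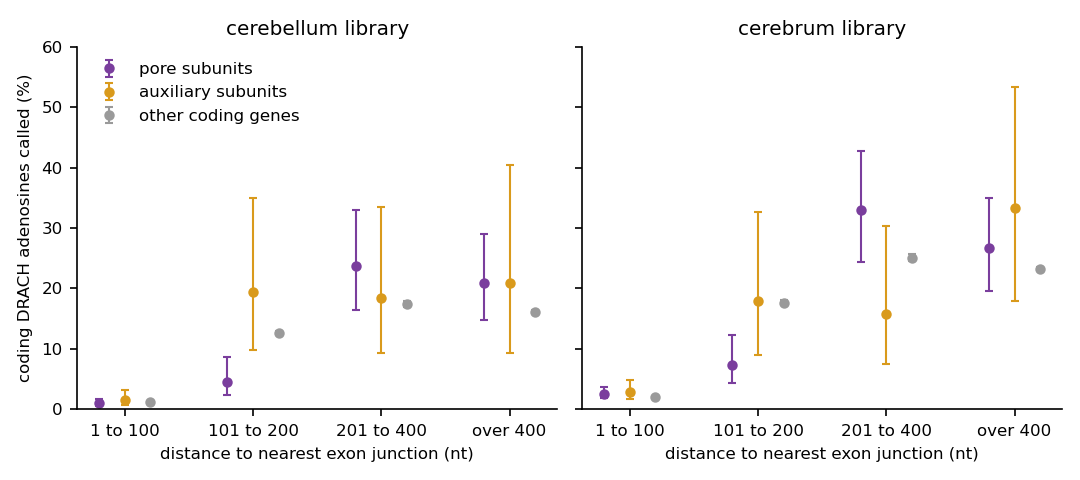
Share of coding DRACH adenosines that were called (y axis, percent) by distance to the nearest exon junction (x axis, nt) for pore-forming subunits, auxiliary subunits and other coding genes, with the cerebellum library on the left and the cerebrum library on the right. Points are shares and bars 95% Wilson intervals over adenosines; the shares are low within 100 nt of a junction in every group and, in pore-forming and other genes, highest beyond 200 nt, while the auxiliary subunits have wide, overlapping intervals in the 3 farther steps.

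Around the stop codon the channel genes stood higher than other genes. In the 200 nt before its end, 35 of 136 DRACH adenosines were called in cerebellum (25.7%, interval 19.1 to 33.7) and 42 of 140 in cerebrum (interval 23.0 to 38.0), against 9.09% and 13.2% in other genes. Past it, the first 500 nt of the 3′ UTR were called in 73 of 286 cases (25.5%, 20.8 to 30.9) and 93 of 297 cases (31.3%, 26.3 to 36.8), against 17.0% and 22.1%. Beyond 500 nt the shares were 6.89% and 9.43% in channel genes and 4.91% and 7.01% in other genes. Cacng4 weighed on this farther step: 20 and 28 of its 51 DRACH adenosines in the 3′ UTR were called, only 3 and 6 of them within 500 nt. The shares beyond 500 nt were not recomputed without Cacng4.

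Gene structure went with the difference before the stop codon. Pore-forming genes above all end in long coding last exons. The median coding length of the last exon was 489 nt in the 27 channel genes with an exonic DRACH site. It was 888 nt in the 12 pore-forming genes, 261 nt in the 15 auxiliary genes and 159 nt in other such genes. In the 5 neuronal sodium channel genes the last exon holds between 1148 and 1196 nt of coding sequence. When both sets were limited to genes with at least 400 coding nt in the last exon, the shares in the 200 nt before the end of the stop codon were 30.3% (interval 21.8 to 40.5) and 33.7% (24.7 to 44.0) in channel genes and 17.1% and 25.6% in other genes. With that limit the channel genes stayed above the other genes in cerebellum, and in cerebrum their interval included the value of the other genes. The pore-forming genes were above by their own interval in cerebellum (34.55%, 23.36 to 47.75) and in cerebrum (38.18%, 26.52 to 51.39). The intervals of the auxiliary genes (23.53%, 12.44 to 40.0, and 26.47%, 14.6 to 43.12) included the values of the other genes. A second measure took the coding part of last exons over 200 nt from the junction, without that limit on genes. There 22.13% (interval 17.29 to 27.86) and 29.36% (23.91 to 35.48) were called in channel genes. Both intervals lay above the values of other genes (15.93% and 23.58%), narrowly in cerebrum.

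**Figure D4:**
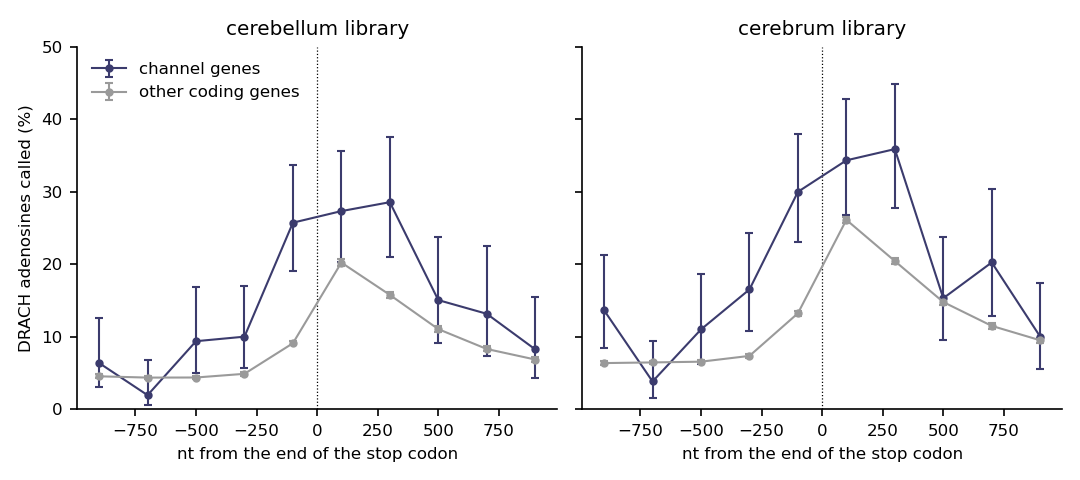
Share of DRACH adenosines that were called (y axis, percent) in steps of 200 nt around the end of the stop codon (x axis, nt, dotted line at 0) in channel genes and other coding genes with an exonic DRACH site, for the cerebellum library (left) and the cerebrum library (right). Bars are 95% Wilson intervals over adenosines; in channel genes the high shares span the last 200 nt before and the first 400 nt after the stop codon, while in other genes the step before the stop codon is lower than the 2 steps after it.

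The share of sites in the 3′ UTR differed between pore-forming and auxiliary genes, each taken as a set. The 3′ UTR held 81 of 154 exonic DRACH sites of pore-forming genes in cerebellum (52.6%, interval 44.7 to 60.3) and 104 of 217 in cerebrum (47.9%, 41.4 to 54.5). In auxiliary genes it held 65 of 95 (68.4%, 58.5 to 76.9) and 94 of 135 (69.6%, 61.4 to 76.8). The intervals did not overlap in cerebrum and overlapped slightly in cerebellum. Much of the auxiliary share came from Cacng4 (20 of these sites in cerebellum and 28 in cerebrum) and Scn3b (19 in each library). The contrast was not recomputed without these genes, so it cannot be read as a trait of auxiliary genes in general. Over all channel genes the shares were 58.6% and 56.3%, next to 57.3% and 55.7% in other genes.

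Read against the available motifs, the order turned near the stop codon. The whole 3′ UTR, on which the shares above rest, is not compared in this way here. In the first 500 nt of the 3′ UTR, 35.0% of the DRACH adenosines of pore-forming genes were called in cerebellum (interval 27.6 to 43.2) and 39.3% in cerebrum (31.6 to 47.6), and in auxiliary genes 16.4% (11.3 to 23.3) and 24.2% (18.2 to 31.5). On the coding part of last exons both classes were alike in cerebellum, with 20.5% and 19.3% called, and in cerebrum 60 of 200 and 26 of 113 were called, with overlapping intervals (24.1 to 36.7 and 16.2 to 31.6). When the sodium channel pore genes were left out, which was chosen after seeing the data, the share of all channel genes in the first 500 nt of the 3′ UTR fell from 25.5% to 20.5% in cerebellum and from 31.3% to 26.1% in cerebrum. The intervals were then 15.5 to 26.6 and 20.6 to 32.4 and included the values of other genes (17.0% and 22.1%). The channel shares stayed higher than these values, but the intervals no longer set them apart. In the 200 nt before the end of the stop codon, the shares without these genes were 21.57% (14.7 to 30.5) and 30.19% (22.27 to 39.49). Those intervals lay above the values of other genes (9.09% and 13.2%).

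The sequence of the motif went with how often it was called. On last exons of channel genes GGACT led, with 27 of 74 called in cerebellum (36.5%, interval 26.4 to 47.9) and 34 of 81 in cerebrum (42.0%, 31.8 to 52.9). GAACT (30.7% and 31.4%) and AAACT (26.4% and 31.2%) came next in both libraries. TGACT (22.02% and 30.6%), GGACC (25.4% and 26.3%), AGACT (22.2% and 27.6%) and GGACA (16.05% and 28.4%) followed in an order that differed between the libraries. AAACC and TAACC were not called in either library (0 of 98 and 0 of 49 in cerebellum, which allow up to 3.77% and 7.27% by the interval). GGACT also led in other genes, at 23.0% and 33.1%. The higher called share of channel last exons was spread over several motifs: 5 motifs (AAACT and AGACA among them, with GGACC and also TGACA and TGACT) were each above the share of other genes by their interval in both libraries.

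Sites without a DRACH motif, taken over all regions, were found in both libraries less often than DRACH sites on coding exons. Both sets also differ in region, as most intron sites lacked the motif (48 of 346 had it in cerebrum). A comparison within a region was not made. Of the DRACH sites on coding exons, 83.9% of those in cerebellum were also called in cerebrum, and 59.4% of those in cerebrum were also called in cerebellum, next to 83.6% and 48.9% in other genes. Of the non-DRACH sites, 38 of 181 in cerebellum (interval 15.7 to 27.5) and 38 of 562 in cerebrum (6.76%) were in both, against 26.7% and 7.93% in other genes. The most frequent non-DRACH contexts in cerebrum were CCATC (23 sites) and TCATC (18 sites). The cerebrum library held 2.10 times as many channel sites as the cerebellum library, and 1.41 times as many exonic DRACH sites. In other genes these ratios were 2.36 and 1.71.

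The sodium channel pore genes arose by duplication, and Scn1a, Scn2a, Scn3a and Scn9a, with the little-marked Scn7a, lie together on chromosome 2. Their coding sequences were aligned codon by codon to ask whether paralogs were called at the same adenosine. Scn2a and Scn3a shared 87.7% of aligned residues and had a DRACH motif at the same codon position 87 times. Both genes were called at 8 of these, 1 of them at 9 and neither at 70.

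Over the 10 pairs of the 5 genes, 693 shared DRACH positions (each counted once per pair) were called in both genes 27 times, in 1 gene 91 times and in neither 575 times. Most coding sites were thus not shared between paralogs, even where the motif was. Of 280 coding sites summed over these pairs, 145 had a DRACH motif at the same position in the paralog. In the other families both paralogs were called at 4 of 457 shared positions for calcium channel pore genes, 3 of 33 for γ subunits, and 0 of 40 and 0 of 67 for α2δ and calcium channel β subunits. Of shared positions called in at least 1 gene, both were called at 22.9% of 118 for sodium channel pore genes. This share was 12.9% of 31 for calcium channel pore genes and 21.4% of 14 for γ subunits. For α2δ and calcium channel β subunits only 3 and 5 such positions existed, too few to compare.

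One position was called in 4 genes and 5 positions were called in 3. The first, and the 3 of the 5 at which the largest share of genes with the motif was called, are printed to show how far the sequence around a shared site is itself shared. The first lies on the last exon, between 113 and 131 nt before the end of the stop codon, and was called in 4 genes in both libraries. The windows of Scn2a, Scn3a and Scn9a differ from that of Scn1a in 4, 10 and 9 of 21 bases.
Scn1a, coding sequence, chr2:66272988-66273008 (-): tacggagaAAACTgacctgac
Scn2a, coding sequence, chr2:65764688-65764708 (+): tccagagaAGACTgacgtgac
Scn3a, coding sequence, chr2:65460663-65460683 (-): cccagaaaAGACAgatgggag
Scn9a, coding sequence, chr2:66483533-66483553 (-): tccagaaaAGACAgatgcaac
The second lies in exon 14 (239 nt in all 3 genes), 3769 to 3799 nt before the end of the stop codon, and was called in both libraries in Scn1a and Scn2a and in cerebrum in Scn3a. The windows of Scn2a and Scn3a each differ from that of Scn1a in 6 bases.
Scn1a, coding sequence, chr2:66322413-66322433 (-): ttaatttgGGACTgttctcca
Scn2a, coding sequence, chr2:65711766-65711786 (+): ctgatttgGGACTgttgtaag
Scn3a, coding sequence, chr2:65506176-65506196 (-): ttgatctgGGACTgttgtgat
The third and the fourth lie in exon 17 of Scn1a, Scn2a, Scn3a and Scn9a, the longest internal exon of these genes at 474 to 483 nt. The third was called in both libraries in Scn1a, Scn2a and Scn3a, and the windows of Scn2a and Scn3a differ from that of Scn1a in 3 and 6 bases.
Scn1a, coding sequence, chr2:66318047-66318067 (-): aacagaaaAGACAattgtatc
Scn2a, coding sequence, chr2:65717607-65717627 (+): aacaagaaAGACAgttgtatc
Scn3a, coding sequence, chr2:65495172-65495192 (-): aacaaaatAGACAgctgcatg
The fourth was called in both libraries in Scn1a and Scn2a and in cerebellum in Scn9a, while Scn7a had the motif, in its exon 15, without a call. The windows of Scn1a and Scn2a differ there in 1 base, and how reads that match both genes were placed was not tested.
Scn1a, coding sequence, chr2:66317883-66317903 (-): cctcactgTGACTgtgcccat
Scn2a, coding sequence, chr2:65717768-65717788 (+): cctcaccgTGACTgtgcccat
Scn7a, coding sequence, chr2:66697632-66697652 (-): tgcctctgAAACTgtgccgat
Scn9a, coding sequence, chr2:66526687-66526707 (-): cctcacagTGACAgtgcccat
Exon 17 as a whole had called adenosines in 5 genes, with 4 of 10 in Scn2a, 3 of 17 in Scn1a, 2 of 12 in Scn3a, and 1 each in Scn8a and Scn9a over both libraries.

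**Figure D5:**
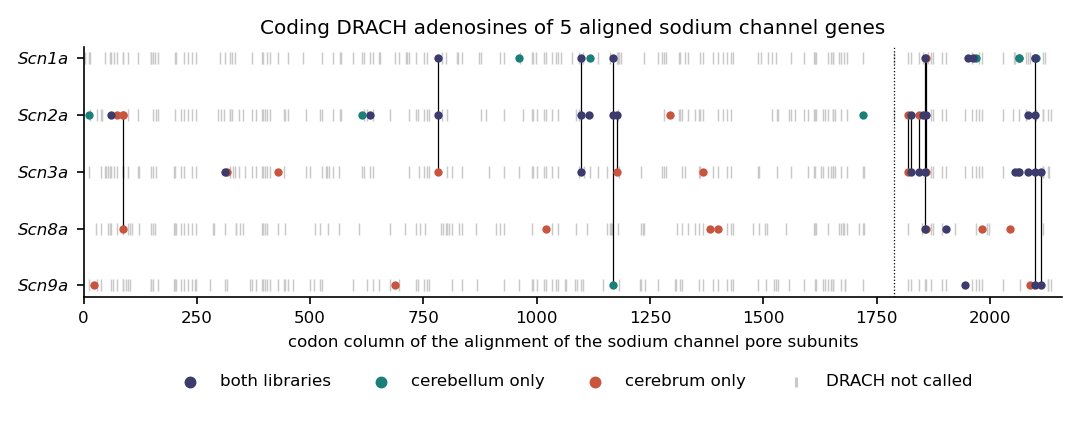
Coding DRACH adenosines of 5 aligned sodium channel genes by codon column of the alignment (x axis), with called adenosines as coloured points by library and uncalled ones as grey ticks. Black vertical lines join genes called at the same codon position (genes between the line's ends need not be called), and the dotted line marks the start of the last exon; 1 column near the 3′ end joins 4 genes.

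Introns held 107 channel sites in cerebellum (23.2%, interval 19.6 to 27.3) and 346 in cerebrum (35.7%, 32.8 to 38.8), against 17.7% and 26.03% in other genes. Their DRACH share was 24.3% and 13.9%. It was higher in pore-forming genes (23 of 74 and 40 of 204 sites) than in auxiliary genes (3 of 33 and 8 of 142), and in other genes it was 14.8% and 12.5%. Without Cacna1e, an alternative chosen after seeing the data, the DRACH share was 15.6% (interval 9.50 to 24.4) and 11.2% (8.18 to 15.2) over all channel genes, intervals that include the values of other genes, and 19.3% and 15.9% in pore-forming genes. Cacna1c (19 and 72 intron sites) and Cacna2d1 (14 and 71), genes of 609 kb and 440 kb, held the most in cerebrum, and Cacna1c and Cacna1e (17 and 34) the most in cerebellum. Without Cacna1c, also chosen after seeing the data, introns held 20.2% of the sites in cerebellum (interval 16.7 to 24.3, which includes the value of other genes) and 31.4% in cerebrum.

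One group of intron sites stood out by its density. In Cacna1e, 15 DRACH sites and 2 others lay within 2752 nt (chr1:154417001-154419752, minus strand), in the intron after exon 38 of 47 and starting 1276 nt past that exon. Of the 15, 11 were called in cerebellum, 11 in cerebrum and 7 in both. The first 4 of those 7 in the direction of transcription are printed, a set chosen after its values were seen.
Cacna1e, intron, chr1:154419742-154419762 (-): ctcactttGGACAagtgatgt
Cacna1e, intron, chr1:154419486-154419506 (-): cctcactcGGACAtccttggc
Cacna1e, intron, chr1:154419316-154419336 (-): acagagagGAACTccttctgt
Cacna1e, intron, chr1:154419136-154419156 (-): gtaaaaatAAACTgacacatg
GENCODE M21 places no exon there. RefSeq lists 5 transcripts with an exon in this stretch (154416189 to 154418046), which covers 3 of the 15 sites. From which transcript these sites were read was not tested.

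Genes that work with these channels were also marked. Of 23 partner genes (the NALCN channel and its subunits, intracellular FGFs, ankyrins and other regulators), 15 had exonic DRACH sites in cerebellum (182 sites) and 16 in cerebrum (217 sites). Of all protein-coding genes, 33.4% and 43.0% had such a site. Ank2 (54 and 59 sites) and Ank3 (26 and 31) held the most. As in the channel genes, the longer cerebrum list held the larger number in sum. Rims1 (8 and 3), Fgf14 (12 and 11) and Unc80 (6 and 5) went the other way.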

How the data were processed

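Sites were the positions deposited by the authors, 1 file for each of the 2 tissues. Tissues were taken from the sample records; the names of both lists spell out their tissue and also carry the letters bel, which may stand for cerebellum. According to the methods of the study, GLORI reads were mapped to mm10 and to PWK-mm10, sites were called with GLORI-tools, and sites with a methylation rate over 0.1 and a read count over 8 were kept. The deposited unit is a genomic position (other than a count or level), so filters on depth cannot be changed here, and deamination was run at a higher temperature than in the original protocol. The members and the gene lists were chosen with earlier results of these data known.

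Sequence came from GRCm38 and gene models from GENCODE M21, which may differ from the annotation used in calling. A site was assigned to the longest complete coding isoform that covers it, else to another exon, else to an intron. Exon junctions, stop codons and last exons are those of that isoform. A DRACH adenosine of the longest isoform was called when its position was listed. Named in full were the 10 genes with the most exonic DRACH sites and genes with sites in 1 library (some members are counted in the totals and not reported by name here); sequences are those of the site nearest the stop codon in 10 genes, of 4 alignment positions called in the most paralogs (ties broken by the share of genes with the motif that were called, then by position), and of an intron group chosen after its values were seen. Coding sequences were translated, aligned with MAFFT 7.526 and read back as codons. With 1 library per tissue no test was run. Work was done with Python 3.11.15, pandas 2.3.3, scipy 1.17.1, pysam 0.24.0, samtools 1.23.1 and matplotlib 3.10.9. On 2999 simulated sites in 1000 genes, the region was recovered for 100.0% and the DRACH status for 100.0%. Alternatives are given in the closing section.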

Additional observations from a re-analysis of the deposited data

Results flagged for a closer look

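The lists also held sites on the strand opposite to the channel genes, which no count above uses: 10 in the cerebellum library and 25 in the cerebrum library lay inside the gene intervals on that strand. Most were in Cacna2d4, with 5 and 9 sites where Lrtm2 is annotated on the other strand, and in Cacna1c, with 3 and 6 sites where Dcp1b is annotated. Cacna2d4 itself had no site on its own strand.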

How the results depend on the processing

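Of 70 alternative values (52 planned and 18 chosen after seeing the data), 56 stayed within the 95% interval, or for counts within 1.5 times, of the reported value. With introns left out, the cerebrum sites fell to 623. The DRACH share rose to 71.8% (cerebellum) and 57.6% (cerebrum), as few intron sites had the motif. It rose to 71.8% and 54.7% in pore-forming genes and to 71.6% and 63.1% in auxiliary genes. The share found in the other library rose to 68.9% and 39.2%, and why it rose was not tested. Without the sodium channel pore genes, the called share in the first 500 nt of the 3′ UTR was 20.5% and 26.1%. Without Cacna1e the DRACH share of intron sites fell to 15.6% in cerebellum (19.3% in pore-forming genes), and without Cacna1c the intron share in cerebrum fell to 31.4%. Leaving out Cacna2d1, Cacng4 or sites that overlap another gene moved nothing beyond these limits. Nor did the longest-coding isoform, matching within 1 nt or a centre base read as A. Without Cacna2d1, however, the interval of the cerebrum DRACH share included the value of other genes.

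Absence from a list is no evidence of an unmethylated adenosine, since rates and depth are not given, and the cerebrum library is the longer list throughout. Intervals treat sites as independent, although sites lie close together within few genes. No paired analysis was possible because each tissue has 1 library.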
